A study of Mus musculus with 12 samples.

Results

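Loss of Tert was compared between 2 regions of the mouse brain, asking for each gene whether the knockout changed it in the hippocampus by as much as in the cerebral cortex. The measure was the knockout minus wild-type difference of log2(normalized count + 1) in hippocampus minus the same difference in cortex, called the tissue difference here. A negative tissue difference means that the knockout value was lower, relative to wild type, in hippocampus than in cortex. The members were the 21282 of 55487 genes whose mean reached 10 normalized counts in both tables, cortex and hippocampus. All 12 libraries entered, 3 each of wild-type cortex, knockout cortex, wild-type hippocampus and knockout hippocampus. The mice are labelled C57BL/6, the controls mTert WT and the knockouts mTert KO (G1), also marked Homo in the deposited names. No other allele or agent is named for any group. Age and sex, and whether the 3 libraries of a group or the 2 regions came from separate mice, are not stated in the labels. The p-values therefore measure the spread between these libraries, which may be technical in part.

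Tert encodes the reverse transcriptase of telomerase, the enzyme that adds telomere repeats to chromosome ends. Telomeres shorten over generations of mice that lack it, and the label G1 conventionally names the first knockout generation. Cortex and hippocampus share neurons, glia and vessels but hold different excitatory neurons, and each lies against other structures: the striatum under the cortex, and the choroid plexus of the ventricle beside the hippocampus. In bulk tissue, fewer cells of a type and less RNA per cell cannot be told apart.

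The libraries held between 68424934 and 86639113 reads each, as recovered from the deposited values. Wild-type cortex library 2 stood apart: the median absolute log2 difference over genes was 0.299 from library 1 and 0.283 from library 3, against 0.0866 between those 2. In 3 of the 4 groups, library 3 lay midway between libraries 1 and 2. Among genes with a mean of at least 1000 whose libraries 1 and 2 differed by at least 0.4 on the log2 scale, its median position from library 1 (0) to library 2 (1) was 0.511 in wild-type hippocampus over 411 genes, 95.6% of them between the others. It was 0.514 over 96 genes in knockout cortex, with 79.2% between, and 0.499 over 89 genes in knockout hippocampus, with 77.5% between. In wild-type cortex library 3 lay near library 1, at 0.064 over 2232 genes. A library midway between the others makes the spread within a group small, and the labels do not state how library 3 was made. Counts are therefore given also for a reduced set of 8 libraries, 2 a group, made of wild-type cortex libraries 1 and 3 and libraries 1 and 2 of the other groups. Wild-type cortex libraries 1 and 3 lay close together, at 0.0866, so the spread within that group stays small in the reduced set. Both sets were chosen after the data were seen.

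Tert itself checked the labels. It stood at 206, 105 and 241 normalized counts in the wild-type cortex libraries and at 0 in all 3 knockout cortex libraries. In hippocampus it stood at 147, 184 and 128 in wild type and at 0, 6.31 and 0 in knockout. The groups did not overlap in either tissue.

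The tissue difference was called for 642 of 21282 genes (3.02%) at a Benjamini-Hochberg adjusted p below 0.05 in limma. It was lower in hippocampus for 437 genes (2.05%) and higher for 205 (0.963%). In the same fit, the knockout changed 1562 genes in cortex (7.34%), 897 up (4.21%) and 665 down (3.12%), and 4798 in hippocampus (22.5%), 2120 up (9.96%) and 2678 down (12.6%). Across the 21282 genes the effects in the 2 tissues, which share no library, had a Pearson correlation of 0.378, and 0.512 without wild-type cortex library 2. Genes that fell in hippocampus and were not called in cortex made up 274 of the 437 lower genes, and genes that rose in cortex and were not called in hippocampus made up 109. Of the 205 higher genes, 88 rose in hippocampus alone and 78 fell in cortex alone, by the same calls. Another 57 genes (0.268%) were called in both tissues in opposite directions, all with the tissue difference called. Another 678 genes (3.19%) were called in both in the same direction, 375 up (1.76%) and 303 down (1.42%). Of the 642 genes, 500 (2.35% of all genes) had effects of opposite sign, called or not. Genes chosen for a large tissue difference tend to have effects of opposite sign, so this count follows in part from the choice. Likewise, opposite calls in both tissues imply a large tissue difference for the 57 genes. The share of opposite signs among all genes tested was not counted. The 3 wild-type and 3 knockout libraries did not overlap in cortex for 28.5% of all genes and in hippocampus for 46.6%; they did so in both tissues in the same direction for 11.7% and in opposite directions for 3.15%, which is the background of each statement on overlap.

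These counts rested on single libraries. Without wild-type cortex library 2 the tissue difference was called for 1966 genes (9.24%), 652 higher (3.06%) and 1314 lower (6.17%), which include all 642 in the same direction, and without wild-type cortex library 1 for 1334. Leaving out knockout cortex library 1, 2 or 3 left 275, 187 or 189, knockout hippocampus library 1, 2 or 3 left 250, 188 or 193, and wild-type hippocampus library 1 or 3 left 343 or 171. The reduced set called 377 genes (65 higher, 312 lower), of which 248 were among the 642 in the same direction. Libraries 1 and 2 alone in every group called 5 genes, with 2414 at an unadjusted p below 0.05. The balance of rises and falls turned with the libraries. Without wild-type cortex library 2, cortex had 1541 rises and 1847 falls, hippocampus 4090 and 3743, and the shared genes 971 and 1342. In the reduced set cortex had 450 rises and 926 falls, and the shared genes 201 and 724. In hippocampus quantile normalization also turned it, to 2795 rises and 2318 falls. The split of the tissue difference moved with the scaling: 180 higher and 866 lower by edgeR with its own normalization, and 446 higher and 577 lower once each library's trend along exonic length was removed.

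**Figure D1:**
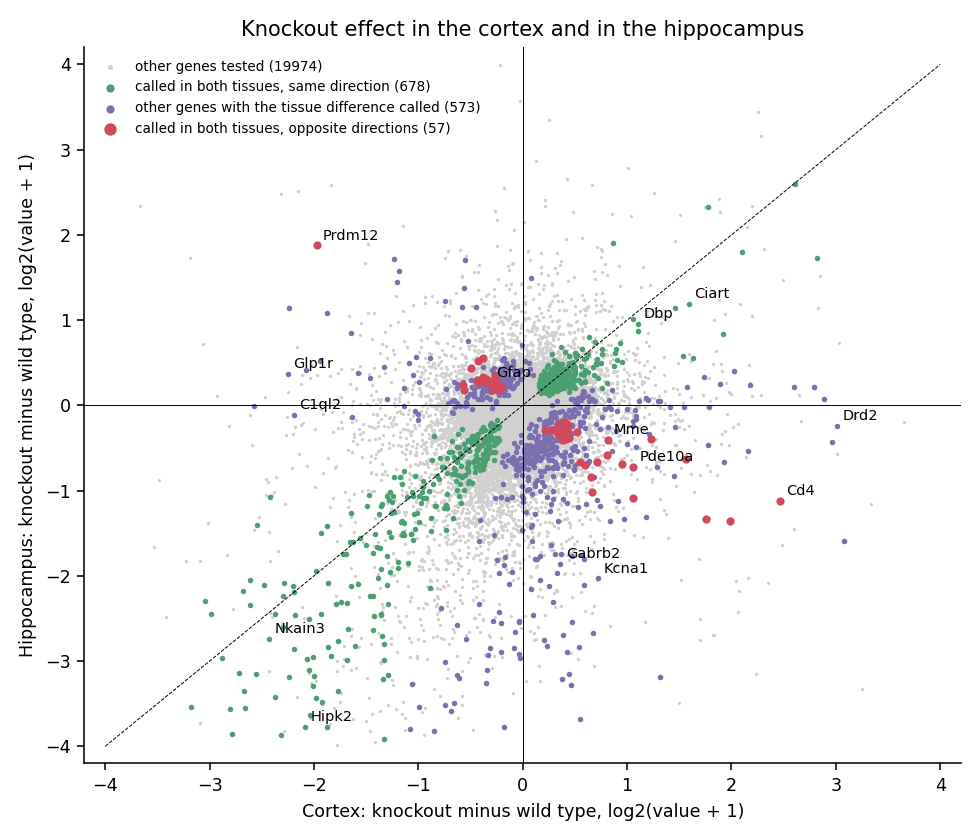
Each point is a gene, with its knockout minus wild-type difference of log2(normalized count + 1) in cortex (x axis) and in hippocampus (y axis), means of 3 libraries a group; the dashed line marks equal effects. The 678 genes called in both tissues in the same direction lie in the 2 quadrants that the line crosses, at varying distance from it. The 57 called in opposite directions lie in the other 2 quadrants, and the other 573 genes with the tissue difference called lie off the line. The 64 genes past 4 on either axis are not drawn.

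Markers of striatal neurons rose in knockout cortex. Of 21 such genes tested, 19 rose in cortex, where 4.21% of all genes did, and 1 rose and 3 fell in hippocampus, where 9.96% and 12.6% of all genes did. The tissue difference was called for 15 of the 21, all lower, with a list median of -1.35 against 0.01 over all genes. Drd2, the D2 dopamine receptor of the indirect-pathway neurons of the striatum (chromosome 9, 49340627 to 49408177, plus strand, GRCm38), read 209, 126 and 159 normalized counts in wild-type cortex and 959, 1775 and 1305 in knockout cortex. In hippocampus it read 250, 167 and 241 in wild type and 157, 184 and 209 in knockout. Every knockout cortex library was above every wild-type one, while the hippocampus groups overlapped. The knockout effect was 3.01 ± 0.24 (SE) in cortex and -0.25 ± 0.24 in hippocampus on the log2 scale, a tissue difference of -3.25 (95% interval -4.01 to -2.50, adjusted p = 0.00176).

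Adora2a, the adenosine receptor found on the same neurons, read 290, 160 and 192 in wild-type cortex and 1164, 2239 and 1641 in knockout cortex. In hippocampus it read 315, 157 and 175 against 166, 140 and 153, and its tissue difference was -3.39 (-4.30 to -2.47, adjusted p = 0.00307). Syndig1l, a membrane protein enriched in striatum, read 272, 329 and 294 in wild-type cortex and 1628, 2603 and 2061 in knockout cortex. It read 604, 605 and 599 in wild-type and 753, 688 and 661 in knockout hippocampus, and its tissue difference of -2.57 ± 0.20 (SE, adjusted p = 0.000259) had the smallest p of the list. In all 3 genes knockout cortex library 1 was the lowest of its group, library 2 the highest and library 3 between them.

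Other striatal members followed. Scn4b, a sodium channel beta subunit abundant in striatal projection neurons, rose by 1.41 in cortex and differed by -0.02 in hippocampus. Lrrc10b, which no list held, read 211, 263 and 237 in wild-type and 1218, 2387 and 1844 in knockout cortex, against 5712 to 7037 in wild-type and 6200 to 7107 in knockout hippocampus. Penk, Drd1, Gpr6 and Ppp1r1b, picked from the list after their values were seen, had tissue differences of -1.64, -1.35, -1.94 and -1.72. The summed level of the striatal list was 59964 to 66207 in wild-type cortex, 112504 to 159088 in knockout cortex, 72026 to 73834 in wild-type hippocampus and 68335 to 69888 in knockout hippocampus. Whether the cortex samples held striatal tissue was not tested, nor was its part in these or the other rises in cortex. In the reduced set 10 of the 21 markers had the tissue difference called, all lower.

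A second group of genes fell in hippocampus and did not pass the test in cortex. Of the 10 genes named for the lowest tissue differences, among called genes with a mean of at least 50 in each table, 7 belonged to it: Srcap, Actl10, Palm2, Plcxd3, Hs6st3, Klhl11 and Zfp382. Kcna1, a voltage-gated potassium channel of axons, read 6308, 7557 and 7000 normalized counts in wild-type hippocampus and 1846, 1530 and 1728 in knockout. In cortex it read 6706, 2791 and 6698 in wild type and 7868, 8799 and 8107 in knockout. Its effect was -2.03 ± 0.26 in hippocampus and 0.72 ± 0.26 in cortex, a tissue difference of -2.75 (-3.55 to -1.95, adjusted p = 0.00453). Gabrb2, a beta subunit of the GABA-A receptor, read 6549, 8600 and 7586 in wild-type and 2155, 1890 and 2196 in knockout hippocampus. In cortex it read 9107, 3571 and 8689 in wild type and 7787, 9162 and 8377 in knockout, and its tissue difference was -2.22 (-3.06 to -1.37, adjusted p = 0.015). For both genes the hippocampus groups lay apart, and wild-type cortex library 2 was the lowest of the 6 cortex libraries.

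Hs6st3, an enzyme that sulfates heparan sulfate, read 1368, 1797 and 1546 in wild-type and 329, 231 and 253 in knockout hippocampus. In cortex it read 1513, 725 and 1328 in wild type and 1468, 1691 and 1557 in knockout, and its tissue difference was -3.01 (-3.72 to -2.30, adjusted p = 0.00185). Srcap, the ATPase of a complex that places the histone variant H2A.Z, had the lowest called tissue difference of the named genes, -3.75 (-5.30 to -2.19, adjusted p = 0.0212). It read 14080, 14450 and 11872 in wild-type hippocampus and 2321, 1854 and 602 in knockout, against 12026, 3439 and 12140 in wild-type and 10594, 11679 and 10593 in knockout cortex. Srcap overlaps exons of other gene models on both strands, and Palm2 overlaps Pakap on its own strand, so reads of these genes could be split by the counting. Klhl11, an adaptor of a ubiquitin ligase, and Zfp382, a zinc finger protein, had tissue differences of -2.87 and -2.76.

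Wild-type cortex library 2 lay on the side of the knockout hippocampus in this group. Over the 274 genes it was below the mean of the other wild-type cortex libraries in 96% and was the lowest of all 6 cortex libraries in 85.4%, against 52.5% and 33.2% of all genes. Its median difference from the other wild-type libraries was -0.506, where the knockout effect in hippocampus had a median of -0.712. Across all 21282 genes that difference and the hippocampus effect, which share no library, had a Pearson correlation of 0.4. The 274 genes were chosen with this library in the wild-type cortex mean. A low value there lowers the tissue difference and widens the cortex spread, so their shares and median follow in part from the choice. The correlation over all genes does not use that choice. Without the library the median cortex effect of the 274 genes was -0.022, from 0.136 with it, and their median tissue difference was -0.767. The values of Kcna1, Gabrb2 and Hs6st3 were then -2.33, -1.78 and -2.68, with adjusted p-values of 4.87e-06, 7.55e-05 and 5.46e-05.

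**Figure D2:**
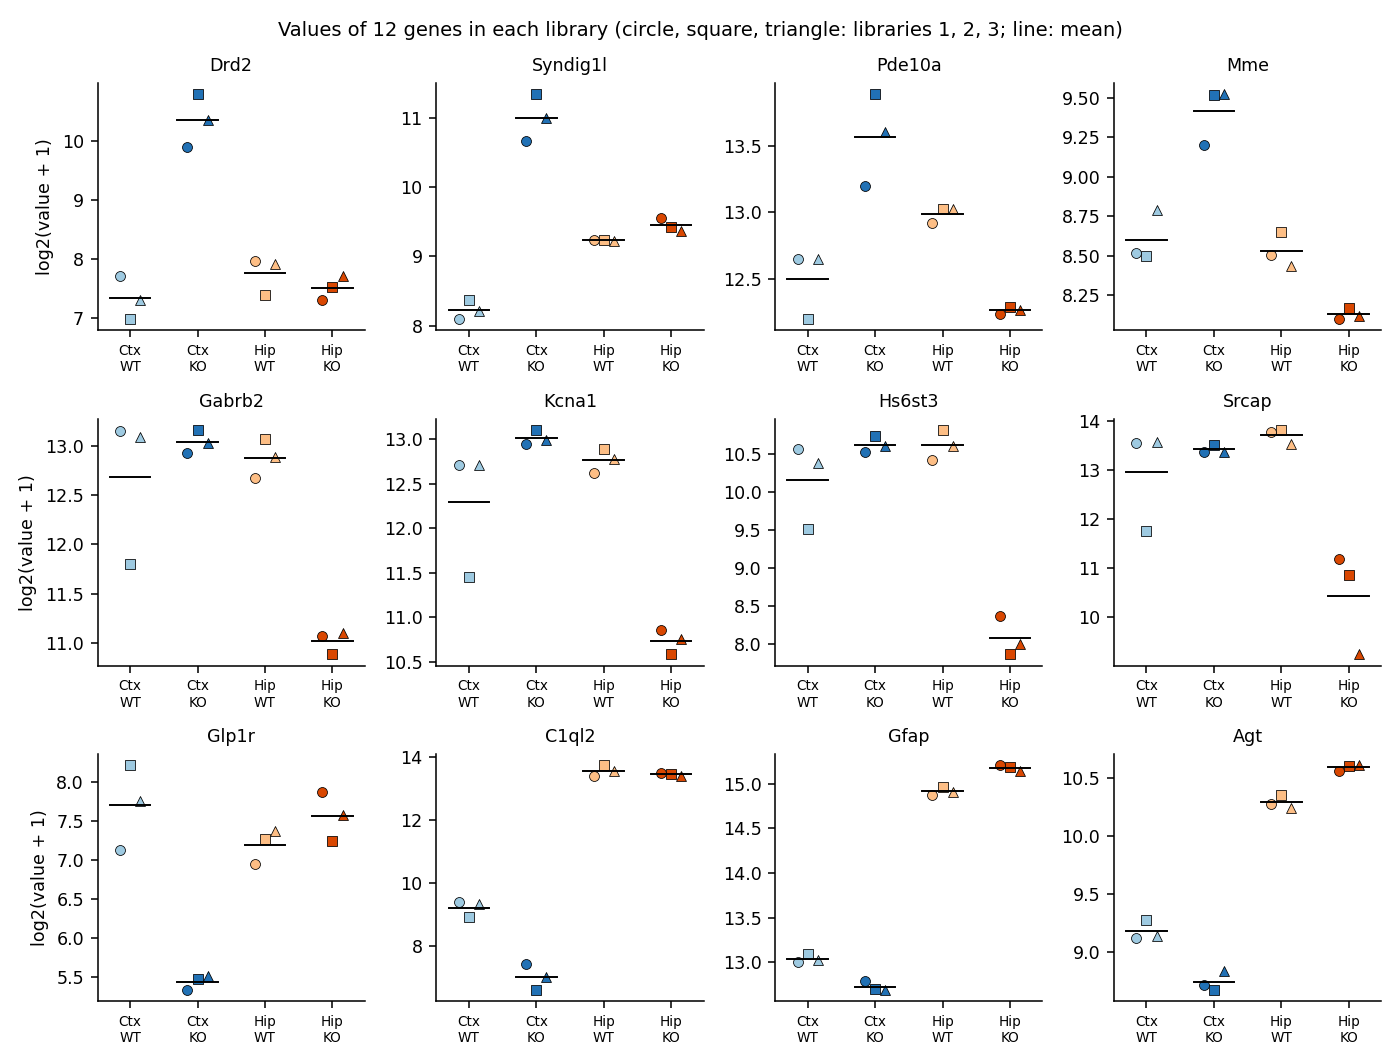
The y axis of each panel is log2(normalized count + 1) of 1 gene, with circles, squares and triangles for libraries 1, 2 and 3 of each group and a line at their mean. Drd2 and Syndig1l rise in knockout cortex, Gabrb2, Kcna1, Hs6st3 and Srcap fall in knockout hippocampus with wild-type cortex library 2 also low, Glp1r and C1ql2 fall in knockout cortex, and Pde10a, Mme, Gfap and Agt move in opposite directions; levels may be compared within a tissue only.

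Falls in hippocampus were counted among ion channels and chromatin genes. Of 33 potassium channel genes, 14 fell and 6 rose in hippocampus, where 12.6% and 9.96% of all genes did, and 7 rose and 1 fell in cortex, where 4.21% and 3.12% did. The tissue difference was called lower for 2, where 2.05% of all genes were. Without wild-type cortex library 2, 11 rose and 9 fell in cortex, where 1541 and 1847 of all 21282 genes did. The tissue difference was then lower for 10, where 6.17% of all genes were. Of 23 voltage-gated sodium and calcium channel genes, 11 fell in hippocampus and 1 in cortex, and the tissue difference was lower for 5 and higher for 1. Without that library 7 rose and 7 fell in cortex and the tissue difference was lower for 12, beside the same counts and share over all genes. Scn1a, the sodium channel of fast-spiking interneurons, read 6851, 8086 and 7383 in wild-type and 5197, 4809 and 5245 in knockout hippocampus. In cortex it read 13466, 8717 and 13037 against 14914, 15929 and 14807, and its tissue difference was -0.95 (adjusted p = 0.025). Grik3, a kainate receptor subunit, fell by 0.67 in hippocampus and had a tissue difference of -0.98 (adjusted p = 0.0387). Of 38 chromatin modifiers, 20 fell in hippocampus and 1 in cortex. The tissue difference was called lower for 4, where 2.05% of all genes were, among them Srcap and Hdac4, a class II histone deacetylase, at -0.60. Without wild-type cortex library 2, 15 of the 38 fell in cortex and 25 in hippocampus, where 1847 and 3743 of all 21282 genes did. The tissue difference was then lower for 20, where 6.17% of all genes were. The list medians of the tissue difference were -0.43 for chromatin modifiers, -0.46 for sodium and calcium channels and -0.26 for potassium channels. After the trend along exonic length was removed they were -0.11, -0.11 and -0.14, and the value of Hdac4 was -0.20 (adjusted p = 0.15).

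Lower tissue differences became more frequent with exonic length. Among protein-coding genes the tissue difference was called lower for 0.468% of the 2135 with up to 2 kb of merged exons and for 6.95% of the 863 with over 12 kb. It was called higher for 1.97% and 0% of the same bins, the last 0 of 863. The median tissue difference went from 0.18 in the shortest bin to -0.41 in the longest, and in hippocampus alone the median effect went from 0.07 to -0.46. The libraries themselves carried this trend: genes over 12 kb minus genes of 2 to 4 kb, each relative to its table's mean, came to 0.237 to 0.310 in wild-type hippocampus, -0.316 to -0.256 in knockout hippocampus and -0.023 to -0.004 in knockout cortex. In wild-type cortex they came to 0.220 and 0.186 in libraries 1 and 3 and to -0.345 in library 2. The part of length in any single gene's fall was not tested. The 274 genes that fell in hippocampus alone had a median of 7874 bases of merged exons, against 3455 over all genes. Among the 7 of them named above the length ran from 1501 bases for Actl10 to 15783 for Srcap.

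**Figure D3:**
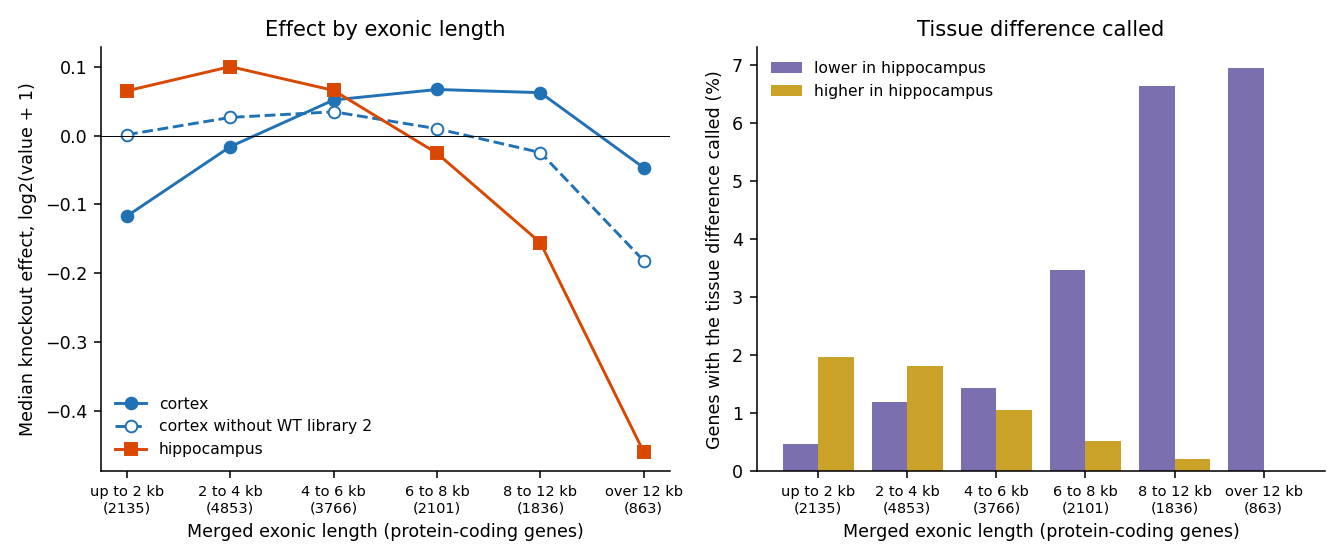
Left, the median knockout effect of protein-coding genes in log2(normalized count + 1), by merged exonic length in kb (genes per bin in parentheses), in cortex, in cortex without wild-type library 2 and in hippocampus. Right, the percent of genes per bin with the tissue difference called; lower calls rise from 0.468% to 6.95% along length while higher calls fall from 1.97% to 0%.

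In the other direction, several neuronal genes fell in cortex and did not pass the test in hippocampus. C1ql2, a synapse organiser secreted by dentate granule cells onto CA3, read 668, 483 and 645 in wild-type cortex and 173, 96.2 and 127 in knockout cortex. In hippocampus it read 10755, 13630 and 12029 in wild type and 11433, 11338 and 10763 in knockout. The effect was -2.20 ± 0.18 in cortex and -0.11 ± 0.18 in hippocampus, a tissue difference of 2.08 (1.52 to 2.65, adjusted p = 0.00307). Glp1r, the receptor of glucagon-like peptide 1, read 139, 295 and 215 in wild-type and 39.5, 43.5 and 44.9 in knockout cortex. It read 122, 153 and 164 in wild-type and 233, 150 and 190 in knockout hippocampus, and its tissue difference was 2.62 (1.84 to 3.40, adjusted p = 0.00503). Tshz2, a zinc finger homeobox factor of deep-layer and retrosplenial neurons, read 11793, 9084 and 10043 in wild-type cortex, 5083, 3526 and 4039 in knockout cortex, 5291, 5074 and 5214 in wild-type hippocampus and 6150, 4802 and 5591 in knockout hippocampus. Its tissue difference was 1.38 (0.97 to 1.78, adjusted p = 0.00503), and 2 predicted genes overlap it on the other strand. The cortex groups of all 3 genes lay apart, and their hippocampus groups overlapped.

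The same rule named 10 genes for the highest tissue differences. Ctxn3, a small brain membrane protein, led them at 3.38 (1.79 to 4.98, adjusted p = 0.0359), from 289, 360 and 229 normalized counts in wild-type and 74.3, 32.1 and 89.9 in knockout cortex. Htr5b, a serotonin receptor, Ngb, the neuronal globin, Grp, a bombesin-like peptide, and Myoc, a secreted glycoprotein, also fell in cortex, with tissue differences of 1.41, 1.59, 1.13 and 1.79. Magel2, an imprinted ubiquitin ligase regulator, and Fam180a rose in hippocampus instead, with tissue differences of 1.97 and 2.65. In the reduced set the call held for Glp1r, C1ql2, Magel2 and Tshz2 and for none of the other 6 of the 10.

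Markers of the hippocampal CA fields had higher tissue differences. Of 19 such genes, 8 rose in hippocampus, 2 rose in cortex and 4 fell in cortex, where 9.96%, 4.21% and 3.12% of all genes did. The tissue difference was called for 9, each higher, where 0.963% of all genes were. In the reduced set it was called for 3, and by edgeR for 9. The list median was 0.36, with 12 values above 0 and 7 below. Cpne7, a calcium-dependent membrane-binding protein, read 2873, 2694 and 2983 in wild-type cortex, 1791, 1831 and 1772 in knockout cortex, 10128, 11985 and 11025 in wild-type hippocampus and 10884, 12230 and 11418 in knockout hippocampus. Its tissue difference was 0.72 (0.51 to 0.93, adjusted p = 0.00453). Lypd1, a modulator of nicotinic receptors, fell by 0.66 in cortex, with a tissue difference of 0.71 (adjusted p = 0.00906). The summed level of the list was 145486 to 168479 in wild-type hippocampus, 190449 to 197410 in knockout hippocampus, 81702 to 82726 in wild-type cortex and 79614 to 81083 in knockout cortex. Of 17 dentate gyrus markers, 1 rose and 6 fell in hippocampus, where 9.96% and 12.6% of all genes did. Plk5, a neuronal polo-like kinase, had a tissue difference of -0.44 beside the 2.08 of C1ql2. The part of a shift between hippocampal fields in these values was not tested.

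The 57 genes with opposite effects fell into 30 that rose in cortex and fell in hippocampus and 27 that fell in cortex and rose in hippocampus. Without wild-type cortex library 2, 54 of the 57 were again called in opposite directions, among 170 such genes (0.799%), and in the reduced set 21 were, among 31. Leaving out 1 knockout library left 22 to 33 opposite genes. Without wild-type hippocampus library 2 there were 94, and without its library 3 there were 25. Pde10a, the phosphodiesterase of striatal neurons that degrades cyclic AMP and cyclic GMP, read 6422, 4707 and 6416 in wild-type cortex and 9366, 15116 and 12447 in knockout cortex. In hippocampus it read 7742, 8326 and 8346 in wild type and 4841, 5015 and 4927 in knockout. Its effect was 1.06 ± 0.15 in cortex (adjusted p = 0.00242) and -0.72 ± 0.15 in hippocampus (adjusted p = 0.00654), and the groups lay apart in both tissues. Rgs9, which speeds the shut-off of dopamine receptor signalling, and Foxp1, a forkhead factor of striatal and deep-layer neurons, were the other striatal markers called in opposite directions; they were named after their values were seen.

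Tspan11, a tetraspanin, had the smallest p among the 8 opposite genes with the largest effects. It read 467, 471 and 447 in wild-type and 887, 897 and 886 in knockout cortex, and 102, 87.8 and 104 in wild-type and 60.5, 64.9 and 55.1 in knockout hippocampus, a tissue difference of -1.64 (-1.96 to -1.31, adjusted p = 0.000688). Cd4, a T-cell coreceptor that some myeloid cells also carry, read 83.2, 92.2 and 107 in wild-type and 374, 636 and 596 in knockout cortex, against 43.7, 23.5 and 45.5 in wild-type and 10.7, 18 and 21.3 in knockout hippocampus. Car12, a carbonic anhydrase, Musk, the muscle-specific kinase of the neuromuscular junction, Heg1, an endothelial receptor, and Ptprv, a receptor-type phosphatase, also rose in cortex and fell in hippocampus, with tissue differences of -2.15, -1.69, -1.38 and -3.09. That of Heg1 was -1.04 once the length trend was removed, with an adjusted p of 0.0501. The cortex rises of Musk and Heg1 did not pass without wild-type cortex library 2, at adjusted p-values of 0.0728 and 0.0662. Prdm12, a transcriptional regulator of sensory neurons, was the 1 of these 8 with the other direction, at 44.6, 29.1 and 36.4 in wild-type cortex, 5.64, 8.28 and 12.8 in knockout cortex, 4.07, 12.8 and 12.7 in wild-type hippocampus and 50.8, 21.6 and 39.6 in knockout hippocampus. At these low values counting error takes a larger share, and its call did not hold in the reduced set (adjusted p = 0.0513).

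Mme, neprilysin, a peptidase that degrades amyloid beta, read 366, 361 and 442 in wild-type and 588, 734 and 735 in knockout cortex. In hippocampus it read 362, 401 and 345 in wild type and 273, 287 and 277 in knockout, and its tissue difference was -1.21 (-1.57 to -0.86, adjusted p = 0.00465). Rims1, an active-zone scaffold, rose by 0.43 in cortex and fell by 0.29 in hippocampus. Kcnh1, a potassium channel, rose by 0.38 and fell by 0.40. Their tissue differences were -0.71 and -0.77.

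Gfap and Agt, which astrocytes express, were opposite in the other direction. Gfap, the intermediate filament of astrocytes, read 8205, 8725 and 8334 in wild-type and 7076, 6687 and 6613 in knockout cortex. In hippocampus it read 29956, 32074 and 30812 in wild type and 37818, 37453 and 36126 in knockout, so that the groups lay apart in both tissues. The effects were small, -0.31 ± 0.05 in cortex and 0.26 ± 0.05 in hippocampus, with a tissue difference of 0.57 (0.42 to 0.72, adjusted p = 0.00295). Agt, the precursor of angiotensin, read 557, 620 and 564 against 421, 408 and 458 in cortex and 1240, 1312 and 1214 against 1513, 1560 and 1564 in hippocampus, with a tissue difference of 0.74 (adjusted p = 0.00503). Of 20 astrocyte genes, 9 rose in hippocampus, 1 rose in cortex and 3 fell in cortex, where 9.96%, 4.21% and 3.12% of all genes did. The tissue difference was called for Gfap and Agt alone by limma, and was called higher for 8 of the 20 by DESeq2. The list's summed level was 404663 to 483136 in wild-type and 409097 to 427223 in knockout hippocampus. In cortex it was 439343, 358134 and 437148 in the wild-type libraries and 355499 to 381993 in knockout. Neurod6, a transcription factor of excitatory neurons, fell by 0.40 in cortex and rose by 0.30 in hippocampus. Both calls of Gfap and Agt held in the reduced set, and that of Neurod6 did not.

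Some gene groups leaned to one tissue with few single calls. All 52 cytosolic ribosomal protein genes had a tissue difference above 0, with a list median of 0.34 and 1 call, Rps2 at 0.79 (adjusted p = 0.031). Their median was 0.23 once the trend along exonic length was removed. In cortex their summed level was 413372 and 421264 in wild-type libraries 1 and 3, 594756 in library 2 and 402405 to 411225 in knockout. Without library 2 the list median was 0.17 with 18 calls, all higher, where 3.06% of all genes were. Microglial genes rose in hippocampus for 12 of 22 and in cortex for 3, beside 9.96% and 4.21% of all genes, with 0 called for the tissue difference by limma, 13 at an unadjusted p below 0.05 and 0 by edgeR and 3 by DESeq2. Over all genes, 22.6% had an unadjusted limma p below 0.05 for the tissue difference. Choroid plexus genes had a list median of -2.50 with 0 calls by limma, 13 of 21 at an unadjusted p below 0.05, 6 lower by edgeR and 14 by DESeq2. Ttr, the thyroid hormone carrier made by choroid plexus, read 322269, 7986 and 165256 in wild-type hippocampus and 13343, 5087 and 8893 in knockout, so the groups overlapped and the spread within wild type exceeded the difference. Meningeal and fibroblast genes fell in cortex for 5 of 22, beside 3.12% of all genes. Their median tissue difference was 0.62 with 1 call, Ccn3, a matricellular protein also in the CA list, at 0.60.

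**Figure D4:**
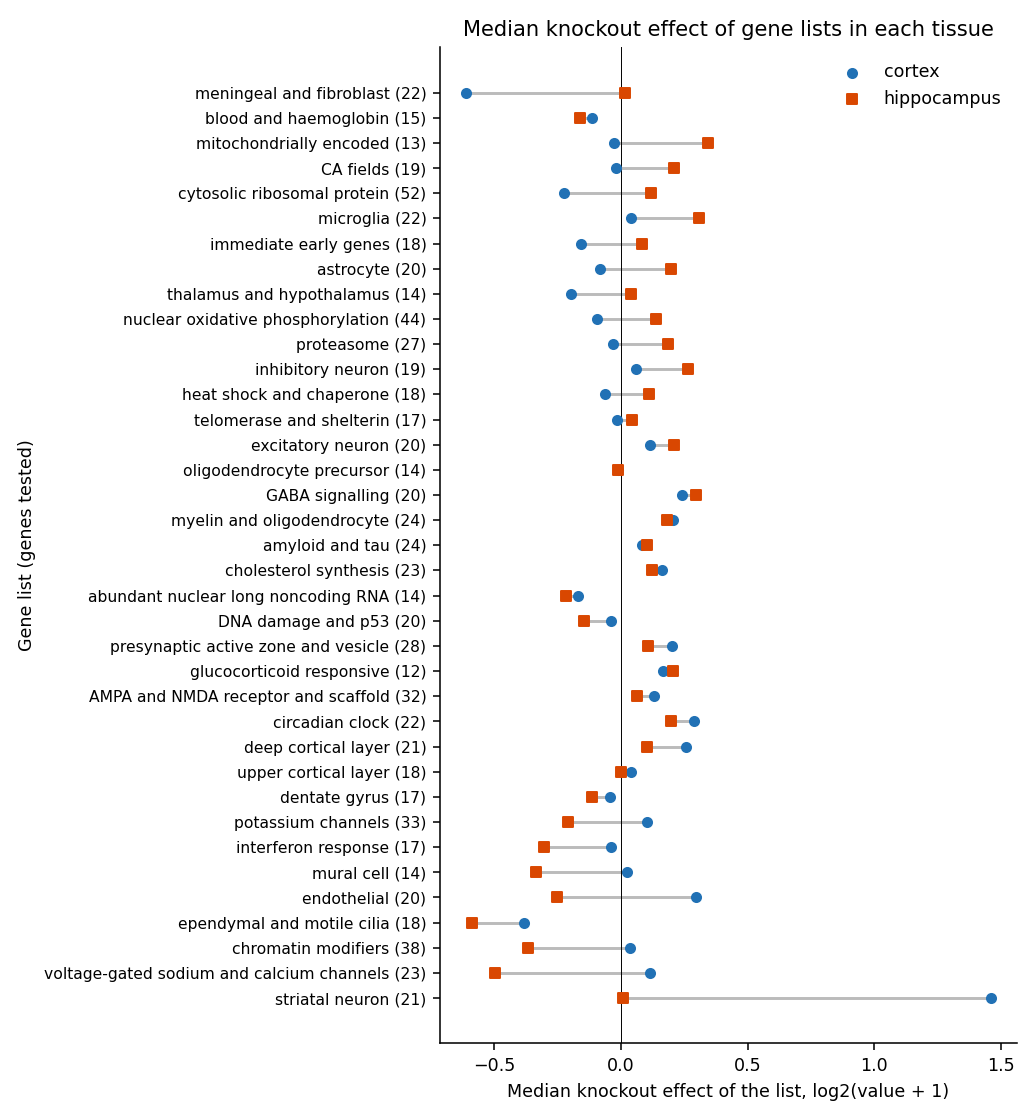
Median knockout effect, in log2(normalized count + 1), of 37 gene lists in cortex (circles) and hippocampus (squares), ordered by their median tissue difference, with the number of genes tested in parentheses. The choroid plexus list, with a median tissue difference of -2.50, and the sex-linked list are not drawn. Striatal markers stand at 1.46 in cortex and 0.01 in hippocampus; sodium and calcium channels and chromatin modifiers lie below 0 in hippocampus and above 0 in cortex, where without wild-type library 2 the chromatin median is -0.0981 and the channel median 0.0019, and GABA signalling, myelin and clock genes lie above 0 in both.

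Genes called in both tissues in the same direction numbered 678, which is 43.4% of the cortex calls and 14.1% of the hippocampus calls. Of them 673 were called so again without wild-type cortex library 2, among 2313 (10.9%), and 356 in the reduced set, among 925. Leaving out wild-type cortex library 1 or 3 left 429 or 372, leaving out 1 knockout cortex library 241 to 360, 1 knockout hippocampus library 401 to 435 and wild-type hippocampus library 3 353. For 429 of the 678 the 95% interval of the tissue difference lay within 0.5 of 0 on the log2 scale, and for 138 it reached past 1, so that for those a difference of 1 log2 unit between tissues lay within the interval. In 12 of the 678 the tissue difference was called although the direction was shared. Of the 303 genes that fell in both, 147 were predicted or unnamed gene models, against 23 of the 375 that rose in both. The share of such models among all genes tested was not counted. Of 15554 protein-coding genes, 0.997% fell in both and 2.29% rose in both, where 1.42% and 1.76% of all genes did.

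Circadian clock genes were 3 of the 8 genes named for the largest shared rises. The clock runs on a feedback loop in which Clock and Arntl switch on genes through the E-box, among them the Per and Cry repressors, the nuclear receptors Nr1d1 and Nr1d2 and the output factor Dbp. Of 22 clock genes, 7 rose in both tissues, where 1.76% of all genes did: Ciart, Dbp, Per1, Nr1d1, Bhlhe41, Bhlhe40 and Cry2. Clock itself and Nfil3, a repressor of the D-box, fell in both. RefSeq promoter sequence of the GRCm38.p6 build was at hand for 6 of the 7, all but Bhlhe40. The 250 bases before each start were searched on both strands for the E-box CACGTG, the D-box TTANGTAA and the ROR element TAGGTCA. A gene was counted where any of its windows held the motif. The E-box was in windows of Ciart, Per1 and Bhlhe41, in 6.02% of all 32851 windows of that length and in 9.17% of the 13171 tested genes with an entry. Per1 also has a window at chr11:69099902-69100151, which held none of these motifs. The D-box was in none of the 6, in 2.06% of all windows and in 1.84% of those tested genes. The ROR element was in none of the 6, in 2.23% of all windows and in 1.92% of those tested genes. Of the 18 clock genes with an entry, 5 held the E-box, 2 the D-box and 1 the ROR element. The E-box was also in Cry1 and Tef, which were not called up in both tissues, the D-box in Per3 and Rorb and the ROR element in Nfil3. The windows of the 3 shared rises with an E-box and of Per3, which held 2 D-boxes, are shown 5′ to 3′ on the gene's strand, less any bases under an annotated exon, with the matches in capitals.
Ciart, chr3:95882252-95882478, minus strand: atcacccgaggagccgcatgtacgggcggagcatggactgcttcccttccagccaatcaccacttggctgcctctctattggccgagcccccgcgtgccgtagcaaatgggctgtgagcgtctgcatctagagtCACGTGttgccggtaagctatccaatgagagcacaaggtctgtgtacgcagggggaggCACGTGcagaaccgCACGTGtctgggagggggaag
Per1, chr11:69098699-69098947, plus strand: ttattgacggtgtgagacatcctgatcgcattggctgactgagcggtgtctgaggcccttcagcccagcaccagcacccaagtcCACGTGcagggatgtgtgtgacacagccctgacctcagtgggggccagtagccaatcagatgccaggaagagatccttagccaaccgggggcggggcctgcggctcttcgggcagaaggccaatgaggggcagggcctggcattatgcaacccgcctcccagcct
Bhlhe41, chr6:145865559-145865670, minus strand: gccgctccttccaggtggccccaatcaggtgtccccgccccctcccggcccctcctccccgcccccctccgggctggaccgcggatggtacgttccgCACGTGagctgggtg
Per3, chr4:151044666-151044915, minus strand: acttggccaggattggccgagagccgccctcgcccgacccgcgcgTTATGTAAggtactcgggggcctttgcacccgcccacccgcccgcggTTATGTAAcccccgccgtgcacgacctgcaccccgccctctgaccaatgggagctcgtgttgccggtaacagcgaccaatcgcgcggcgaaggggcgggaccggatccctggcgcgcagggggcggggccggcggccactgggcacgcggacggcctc
The matches in Ciart begin 116, 58 and 44 bases before the start, that in Per1 166 and that in Bhlhe41 153. The D-boxes of Per3 begin 205 and 158 bases before its start. A match describes the sequence and is not a measured binding site.

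Ciart, a repressor of the Clock and Arntl pair, carried 3 E-boxes and had the largest rise of the clock list in each tissue. It read 716, 641 and 591 in wild-type and 1708, 2187 and 1987 in knockout cortex, and 569, 470 and 486 in wild-type and 978, 1416 and 1105 in knockout hippocampus. All knockout libraries were above all wild-type libraries in each tissue, by 1.59 ± 0.14 in cortex (adjusted p = 0.0001) and 1.19 ± 0.14 in hippocampus (adjusted p = 0.000539), with a tissue difference of -0.40 (-0.83 to 0.03). Dbp, the D-box activator, read 4328, 3985 and 3966 against 7155, 10577 and 8928 in cortex and 4345, 3167 and 3674 against 6483, 7964 and 7100 in hippocampus. It rose by 1.10 and 0.95, with a tissue difference of -0.15 (-0.58 to 0.28), and it overlaps Sphk2 on the other strand. Nr1d1, the nuclear receptor that represses Arntl, rose by 0.69 in cortex and 0.75 in hippocampus, with a tissue difference of 0.06 (-0.21 to 0.33). It overlaps Thra on the other strand. Per1 rose by 0.71 and 0.54, Bhlhe41 by 0.59 and 0.54 and Cry2 by 0.30 and 0.35. The hour of tissue collection is not stated in the labels, and it cannot be told apart from genotype where it differed between the groups.

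Within the same list the tissues differed for 3 genes. Per3 read 5318, 3503 and 4881 in wild-type and 5274, 5715 and 5441 in knockout cortex, against 5565, 5396 and 5303 in wild-type and 3955, 3895 and 4033 in knockout hippocampus. It fell by 0.45 in hippocampus and differed by 0.28 in cortex, with a tissue difference of -0.74 (-1.10 to -0.38, adjusted p = 0.0397). Rorb, a nuclear receptor of cortical layer 4 as well as of the clock, read 3479, 3272 and 3505 against 5163, 5322 and 5236 in cortex, and in hippocampus 1229 to 1400 against 1209 to 1451. It rose by 0.62 in cortex, with a tissue difference of -0.63 (adjusted p = 0.0118), which was -0.34 (adjusted p = 0.0944) once the length trend was removed. Npas2, a partner of Arntl, had a tissue difference of 0.45 (adjusted p = 0.0474), which did not pass in the reduced set (adjusted p = 0.0714) or by edgeR (adjusted p = 0.0549).

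**Figure D5:**
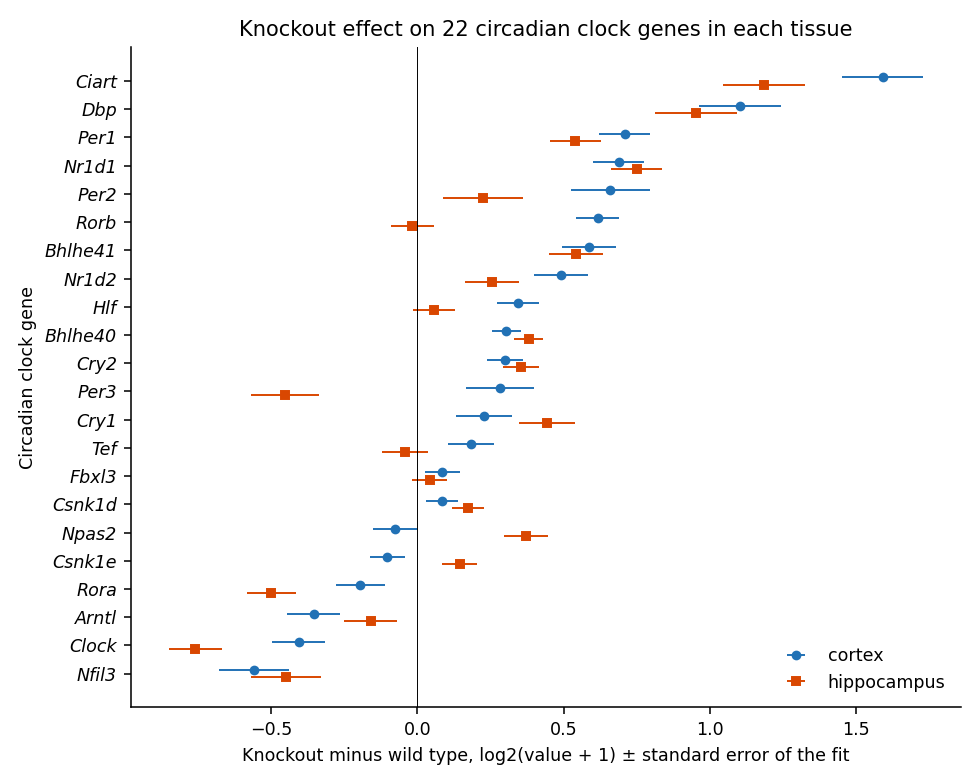
Knockout minus wild-type difference of log2(normalized count + 1) with its standard error for 22 circadian clock genes, in cortex (circles) and hippocampus (squares), 3 libraries a group. Ciart, Dbp, Per1, Nr1d1, Bhlhe41, Bhlhe40 and Cry2 lie above 0 in both tissues, Clock and Nfil3 below 0 in both, and Rorb, Per3 and Npas2 differ between tissues.

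Other shared rises came from several lists. Hif3a, a regulator of the hypoxia response, read 399, 439 and 463 against 945, 971 and 882 in cortex and 387, 610 and 476 against 875, 941 and 834 in hippocampus, rises of 1.10 and 0.87. Clspn, a mediator of the replication checkpoint, rose by 1.92 in cortex and 0.83 in hippocampus, with a tissue difference of -1.09 (-1.90 to -0.28) that did not pass the test (adjusted p = 0.12). Ccl28, a chemokine, rose by 0.93 and 0.73, Emilin2, an extracellular matrix glycoprotein, by 0.90 and 0.66, and Ano2, a calcium-activated chloride channel, by 1.05 and 1.02. Of 20 genes of GABA signalling, 9 rose in both tissues and 2 fell in both, where 1.76% and 1.42% of all genes did. Among them Gad1 and Gad2, the enzymes that make GABA, rose by 0.36 and 0.38 in cortex and by 0.42 and 0.31 in hippocampus, while Gabrb2, described above, was the 1 member with the tissue difference called. Of 24 genes of amyloid and tau biology, 4 rose in both, beside the same 1.76%: App, Aplp2, Ncstn and Aph1a, with App at 0.35 in cortex and 0.33 in hippocampus. The members of these 2 lists other than Gabrb2 and Mme were named after their values were seen.

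The shared falls were deeper than the shared rises, with medians of -0.957 in cortex and -1.067 in hippocampus against 0.286 and 0.278. Kcng3, a modulatory potassium channel subunit, read 247, 34.1 and 215 in wild-type and 5.64, 15.5 and 19.3 in knockout cortex, and 199, 241 and 234 in wild-type and 10.7, 7.22 and 25.1 in knockout hippocampus. Nkain3, which interacts with a sodium pump subunit, read 176, 68.1 and 129 against 13.2, 31 and 21.4 in cortex and 668, 938 and 822 against 101, 119 and 140 in hippocampus, falls of 2.43 and 2.74. Hipk2, a kinase that acts on p53, read 10260, 3120 and 9694 in wild-type and 1449, 1658 and 1687 in knockout cortex, and 9731, 10785 and 10199 in wild-type and 792, 638 and 831 in knockout hippocampus. Its fall was 2.09 in cortex and 3.77 in hippocampus, and its tissue difference of -1.69 (-2.73 to -0.64) did not pass with all libraries (adjusted p = 0.0797) and passed in the reduced set (adjusted p = 0.0243). Lcor, a nuclear receptor corepressor, read 1121, 276 and 976 against 109, 136 and 139 in cortex and 1258, 1433 and 1414 against 103, 70.4 and 81.2 in hippocampus. Gucy1a2, a subunit of soluble guanylate cyclase, Cntnap5c, a neurexin-like adhesion protein, and Srrm4os, a transcript antisense to Srrm4, fell in both tissues as well. In all 7 of these genes, wild-type cortex library 2 was the lowest wild-type library and still above every knockout cortex library. Over the 303 shared falls it was below the mean of the other wild-type cortex libraries in 83.5%.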

How the data were processed

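The authors deposited 1 table of normalized counts per tissue, with 55487 gene rows and 6 libraries each. Per the submitters' processing notes STAR, HTSeq, DESeq2 and the build GRCm38 were used; their versions, roles and strand setting are not stated there. The deposited values are a signal of gene reads divided by 1 size factor per library, and the tables were scaled separately, so levels are compared within a tissue only. Dividing by the smallest step gave whole reads for every value within 0.001; for wild-type cortex libraries 1 and 2, whose step lies near 1, this is an estimate that could not be checked. Coordinates and exonic lengths come from GENCODE vM21, which matched 55227 rows and not the other 260.

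Genes with a mean of at least 10 in each table were tested with limma 3.58.1 in R 4.3.3, on log2(value + 1), in 1 fit over the 12 libraries with a trended prior variance. Contrasts were the knockout effect in each tissue and their difference. A call is a Benjamini-Hochberg adjusted p below 0.05 over all 21282 genes. Fold changes of low genes are understated on this scale. edgeR 4.0.16 and DESeq2 1.42.0 on the recovered reads, other scalings, filters, pseudocounts, blocks and left-out libraries were alternatives. The script was tested on simulated data.

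Named genes were the 10 highest and 10 lowest called tissue differences with a mean of at least 50 and groups apart in at least 1 tissue, the 8 opposite genes and the 8 shared genes per direction with the largest smaller effect, and from each list the 2 genes of smallest p, passing over predicted genes. The members and gene lists were chosen with earlier results of these data known. Penk, Drd1, Gpr6, Ppp1r1b, Rgs9, Foxp1, Gad1, Gad2, App, Aplp2, Ncstn and Aph1a were named after their values were seen, as were the clock genes other than Ciart, Dbp, Nr1d1, Per3 and Rorb.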

Additional observations from a re-analysis of the deposited data

Results flagged for a closer look

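The knockout effect differed between the tissues by the interaction test for 642 genes, and 57 genes were called in opposite directions in the 2 tissues. Of the named genes 61 passed that test, and their tissue differences are given here on the log2 scale, hippocampus minus cortex. The test was passed again in the reduced set of 8 libraries by 40 of the 61, and by 0 of them with library 3 of every group left out.

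The 31 lower ones that passed again were Srcap -3.75, Cd4 -3.58, Adora2a -3.39, Drd2 -3.25, Ptprv -3.09, Palm2 -3.08, Plcxd3 -3.05, Hs6st3 -3.01, Klhl11 -2.87, Lrrc10b -2.81, Zfp382 -2.76, Kcna1 -2.75, Syndig1l -2.57, Gabrb2 -2.22, Pde10a -1.78, Tspan11 -1.64, Scn4b -1.43, Heg1 -1.38, Mme -1.21, Plcxd2 -1.01, Grik3 -0.98, Scn1a -0.95, Miat -0.89, Kcnh1 -0.77, Per3 -0.74, Rims1 -0.71, Ntng2 -0.70, Syt2 -0.64, Rorb -0.63, Nr3c1 -0.50 and Plk5 -0.44. The 9 higher ones that passed again were Glp1r 2.62, C1ql2 2.08, Magel2 1.97, Tshz2 1.38, Rps2 0.79, Agt 0.74, Cpne7 0.72, Lypd1 0.71 and Gfap 0.57.

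The lower ones that did not pass in the reduced set were Actl10 -3.35, Oprk1 -2.24, Car12 -2.15, Musk -1.69, Nr4a2 -1.10, Plin4 -0.96, Vwf -0.84, Gsk3b -0.61 and Hdac4 -0.60. The higher ones that did not pass were Prdm12 3.85, Ctxn3 3.38, Fam180a 2.65, Myoc 1.79, Ngb 1.59, Htr5b 1.41, Grp 1.13, Neurod6 0.69, Bdnf 0.64, Ccn3 0.60, Hspa1b 0.53 and Lhfpl3 0.43. No explanation was tested for any of these values.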

How the results depend on the processing

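Over 29 settings, no called tissue difference of the named genes reversed sign. The balance of rises and falls did turn, in cortex, hippocampus and the shared genes, as given in the report, and in hippocampus also with library weights, to 5851 rises and 5240 falls. Among the named genes' values under the alternatives, 2244 kept their side of the threshold, 409 lost the call and 4 gained it. The median tissue difference kept its sign in every setting for 25 of 39 lists and changed sign in some setting for 14.

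Genes with a different knockout effect, 642 in the report, numbered 370 without a filter, 1013 after quantile normalization, 253 without a trend of the prior variance, 1046 by edgeR and 2080 by DESeq2. Removing the length trend gave 1023 such genes, 2388 cortex calls and 1132 shared genes. Removing it and wild-type cortex library 2 gave 1643, with 3516 cortex calls, 2259 shared and 145 opposite genes. DESeq2 also gave 2803 cortex calls, 1312 shared and 145 opposite genes. Without the variance trend there were 439 shared and 34 opposite genes. Fitting each tissue separately gave 419 cortex calls, 161 shared and 22 opposite genes. Library weights, estimated gene by gene because the default estimate did not converge, ran from 0.0708 for wild-type cortex library 2 to 7.42 for wild-type hippocampus library 3; they gave 5023 genes with a different effect, 5631 cortex calls, 11091 hippocampus calls, 3644 shared and 456 opposite genes.

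Leaving out 1 library gave 171 to 1966 genes with a different effect, 538 to 3388 cortex calls, 2724 to 7833 hippocampus calls, 241 to 2313 shared and 22 to 170 opposite genes, each highest without wild-type cortex library 2. Of the 2 sets chosen after the data were seen, the set without library 3 went below these ranges. Without library 3 of each group there were 5 genes with a different effect, 11 cortex calls, 69 hippocampus calls, 2 shared and 0 opposite genes in limma, with 84 opposite genes at an unadjusted p below 0.05. The reduced set of 8 libraries gave 377 genes with a different effect and 31 opposite genes. Apart from fewer libraries or another set of genes tested, the cause of these moves was not tested.

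With the replicate number as a block the count was 373, and with genotype and number as a block across tissues it was 216. Deviations of same-numbered libraries of the 2 tissues correlated between -0.086 and 0.062. With 3 libraries a group, these values cannot tell whether same-numbered libraries came from the same mouse.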

Other observations

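Mitochondrially encoded transcripts rose in hippocampus for 7 of 13 genes and in cortex for 1, where 9.96% and 4.21% of all genes rose, with a median tissue difference of 0.37 and 0 calls in limma, 8 at an unadjusted p below 0.05. Proteasome subunits rose in hippocampus for 8 of 27 and in cortex for 0, beside the same shares, with 0 called for the tissue difference and 10 at an unadjusted p below 0.05. Nuclear genes of oxidative phosphorylation rose in hippocampus for 9 of 44 and in cortex for 1, again beside 9.96% and 4.21%, with 0 called for the tissue difference and 10 at an unadjusted p below 0.05. Without wild-type cortex library 2, rises in cortex numbered 3 for the mitochondrially encoded, 9 for the proteasome and 5 for the oxidative phosphorylation genes. In hippocampus they then numbered 9, 27 and 30. Over all 21282 genes 1541 rose in cortex and 4090 in hippocampus in that setting. Of 24 genes of myelin and oligodendrocytes, 6 rose in cortex, 10 in hippocampus and 4 in both, beside 4.21%, 9.96% and 1.76% of all genes. The list medians were 0.21 in cortex and 0.18 in hippocampus.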
